A study of Arabidopsis thaliana with 6 samples.

Results

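The shared response of Arabidopsis seedlings to cold was described by setting 3 arrays of seedlings held at 4 °C against 3 arrays of seedlings held at 20 °C, paired by line. These are all 6 arrays of the series, each an Affymetrix ATH1 array that carries probe sets for most genes of Arabidopsis thaliana. The lines were the wild type Col-0 and 2 EMS mutants on that background, sfr6, known for poor freezing tolerance after cold acclimation, and cls8, known for sensitivity to chilling. Seedlings grew on MS medium at 20 °C to an age of 7 days after 4 days of stratification at 4 °C, and their plates were then kept under light for 3 h, either at 4 °C or still at 20 °C. Tissue of 40 to 60 plants was pooled for each array. Each line and temperature had 1 array, so the spread over the 3 lines at a temperature holds differences between genotypes as well as noise. No label says that the arrays came from separate experiments. Both cls8 arrays are titled as repeats, the one at 20 °C as repeat and the one at 4 °C as repeat2. The cls8 genotype and the repeats cannot be told apart, nor can temperature and the kind of repeat within the cls8 pair. Values are intensities on a linear scale, with a trimmed mean of 100 on every array, and a higher intensity means more labelled transcript for that probe set.

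In cold, plants induce CBF transcription factors, which switch on COR and LTI genes whose proteins protect membranes and other proteins. Membranes stiffen, enzymes slow and light is still absorbed, and over hours to days plants change sugar, flavonoid and cell-wall metabolism and the machinery that makes proteins. Growth and the recycling of cell contents respond to the energy status, which the kinase SnRK1 reports when carbon is short and which TOR reports when nutrients are ample. In bulk RNA of whole seedlings, fewer cells of a type and less RNA per cell cannot be told apart.

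The temperature term of limma was fitted for 13648 probe sets. An adjusted p under 0.05 was reached by 2570 of these (18.8%), 1308 (9.58%) higher and 1262 (9.25%) lower at 4 °C. A difference of at least 2-fold was seen for 334 probe sets (2.45%). The levels of the 3 lines at 4 °C and at 20 °C did not overlap for 33.1% of all probe sets tested. Most of the shared response was small: 1106 of the risers and 1130 of the fallers differed less than 2-fold, and 657 and 751 less than 1.5-fold. The median size was 0.58 on the log2 scale for risers and 0.52 for fallers. Of the risers, 1306 moved the same way in 3 of 3 lines, and of the fallers 1260. The test favours probe sets whose lines agree, so these counts follow largely from passing and are no separate evidence. The fallers had a median intensity of 163.2 at 20 °C and the risers one of 99.8, against 94.6 for all probe sets tested. A gene symbol was on record for 97 of the risers and 84 of the fallers, and the functions below come from those and from older names of the same genes. A gene of a list is called measured if its probe set was among the 13648 fitted. Counts of a functional list are read against the shares of all probe sets given above, and medians against the median of all probe sets, a log2 difference of -0.04. Lists were chosen with earlier results of these data known, so these comparisons describe the lists and do not test them. Where a gene is said to rise or to stand at a value, that value is its fitted log2 difference between 4 °C and 20 °C.

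Whole-seedling identity could be checked with few markers. PYK10 and EXPA7 of the root, FMA of guard cells, AUR1 of dividing cells and RCA, LHCB4.1, LHCB4.2 and PSBW of green tissue were measured, and 0 of these 8 passed limma, with 1, AUR1, at an unadjusted p under 0.05. Their log2 differences ran from -0.34 for AUR1 to 0.09 for PYK10. RCA, rubisco activase, read 4093.2 (wild type), 3441.4 (sfr6) and 2524.4 (cls8) at 20 °C, and 2952.3, 3517 and 4002.7 at 4 °C. Cold levels of RCA were below warm ones for the wild type and above them for cls8, so no shared direction is given. No seed or vascular marker was measured under its own name.

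Transcripts for the breakdown of amino acids and for autophagy were lower in cold in all 3 lines. Of 9 measured genes of mitochondrial amino acid breakdown, 6 fell, 0 rose and 9 had a fitted value below 0, with a median log2 difference of -0.57. Of 11 autophagy genes, 7 fell, 0 rose and 11 lay below 0, with a median of -0.42. AKINBETA1, a regulatory subunit of the energy sensor SnRK1, fell as well.

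Leucine, valine and lysine are broken down in mitochondria as a reserve of respiratory fuel. MCCA, a subunit of methylcrotonyl-CoA carboxylase in leucine breakdown, read 254.4 (wild type), 202.9 (sfr6) and 218.2 (cls8) at 20 °C, and 71.1, 88.1 and 94.6 at 4 °C. Every array at 4 °C lay below every array at 20 °C, at less than 0.5 of the level of its own line. The log2 difference was -1.28 ± 0.13 (SE, limma adjusted p = 0.000304). MCCB, the partner subunit, read 270.9, 415.1 and 348.5 at 20 °C and 177.4, 222.3 and 155.7 at 4 °C in the same order of lines, and the groups again did not overlap. Its log2 difference was -0.84 ± 0.11 (SE, limma adjusted p = 0.00142). IVD, isovaleryl-CoA dehydrogenase of the step before, had a log2 difference of -0.68 ± 0.14 (SE, limma adjusted p = 0.01). ALDH6B2, an aldehyde dehydrogenase of valine breakdown, read 533.6, 484.7 and 516.3 at 20 °C and 225.3, 288.1 and 316.8 at 4 °C in the same order of lines. It was lower in every line, with a log2 difference of -0.87 ± 0.12 (SE, limma adjusted p = 0.0016). ETFQO hands electrons from these dehydrogenases to ubiquinone, and it fell with a log2 difference of -0.57 ± 0.12 (SE, limma adjusted p = 0.0117). AT4G33150, listed as the lysine-degrading enzyme LKR/SDH, was the smallest fall that passed, at -0.39 ± 0.12 (SE, limma adjusted p = 0.0493). ETFALPHA, ETFBETA and D2HGDH, which feed electrons into the same route, had log2 differences of -0.30, -0.25 and -0.25 and did not pass. Without the wild type, sfr6 or cls8 pair, 5, 4 and 6 of the 9 fell. Without the wild type pair, AT4G33150 at -0.29 did not pass. With the sfr6 pair left out, the threshold was missed by AT4G33150 at -0.38 and ETFQO at -0.55. Dropping the block for line ended the calls of AT4G33150, and dropping the filter on the mean level those of AT4G33150, ETFQO and IVD.

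AKINBETA1 read 334.2 (wild type), 271.6 (sfr6) and 330.9 (cls8) at 20 °C, and 114.3, 95.3 and 105.4 at 4 °C. The 3 lines kept the same order and no level at 4 °C reached any level at 20 °C. Its log2 difference was -1.45 ± 0.09 (SE, limma adjusted p = 2.52e-05), and of the 5 measured SnRK1 and TOR subunits it alone passed. DPE1, a plastid enzyme that reworks short glucans during starch breakdown, read 121.8, 105.5 and 148.9 at 20 °C and 54.5, 56.5 and 57.3 at 4 °C in the same order of lines. The 3 cold arrays agreed closely and lay below all warm arrays, with a log2 difference of -0.98 ± 0.12 (SE, limma adjusted p = 0.000738). QQS, which bears on the split between carbon and nitrogen stores, fell by a log2 difference of -0.79 ± 0.11 (SE, limma adjusted p = 0.00187). Its level differed so much between lines that the groups overlapped: cls8 read 291 and 161.4, and sfr6 read 53.9 and 29.9, at 20 °C and 4 °C. ATSPS4F, a sucrose phosphate synthase, was the only riser of 8 starch and sucrose genes, and it read 170.5, 115.3 and 241.7 at 20 °C and 253, 275.5 and 343.2 at 4 °C in the same order of lines. The groups did not overlap and the log2 difference was 0.73 ± 0.14 (SE, limma adjusted p = 0.0072). The calls of ATSPS4F and QQS were lost with no block for line, and those of ATSPS4F with no filter on the mean level.

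Autophagy encloses cytoplasm in a membrane that carries ATG8, a small protein joined to lipid by ATG3. ATG8E read 427.4 (wild type), 389.9 (sfr6) and 391.3 (cls8) at 20 °C, and 194.7, 176.8 and 160.7 at 4 °C. The cold level was under 0.5 of the warm level in each line, and the log2 difference was -1.13 ± 0.09 (SE, limma adjusted p = 0.000105). ATG8F read 1146.3, 1030.8 and 881.8 at 20 °C and 460.9, 515.9 and 582.8 at 4 °C in the same order of lines. All cold levels lay below all warm levels, with a log2 difference of -0.95 ± 0.14 (SE, limma adjusted p = 0.00221). ATG8C, APG8H, APG8A and ATG8D fell by smaller amounts, with log2 differences of -0.50, -0.50, -0.48 and -0.42, and ATG3 had one of -0.32. ATG8H, ATG8G, ATG8B and AT5G66930, listed as ATG101, had values from -0.40 to -0.25 and did not pass. Despite their like names, APG8H and ATG8H are different genes with separate probe sets. Over the 11 genes the groups did not overlap in 9. Probe sets of closely related ATG8 genes can share signal, and this was not tested. Without the wild type, sfr6 or cls8 pair, 7, 3 and 5 of the 11 fell, counting members that passed in that fit alone. Of 14 genes for sorting to the vacuole (ESCRT) 0 passed limma, with 3 at an unadjusted p under 0.05, and of 12 ubiquitin-conjugating enzymes UBC18 rose and UBC19, UBC20 and UBC22 fell. ATG3 at -0.30 and UBC20 at -0.42 missed the threshold in the fit that lacked the wild type pair. ATG3 at -0.33, ATG8D at -0.44, APG8A at -0.46, APG8H at -0.45, UBC18 at 0.31, UBC20 at -0.31 and UBC22 at -0.41 no longer passed once the sfr6 pair was left out. Without the cls8 pair, ATG3 at -0.34, ATG8D at -0.33, APG8A at -0.38, UBC18 at 0.38 and UBC20 at -0.42 did not pass. ATG3, ATG8D, APG8A, UBC18, UBC20 and UBC22 did not pass with no block for line, nor ATG3, ATG8D, APG8A, UBC18 and UBC20 with no filter on the mean level.

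**Figure D1:**
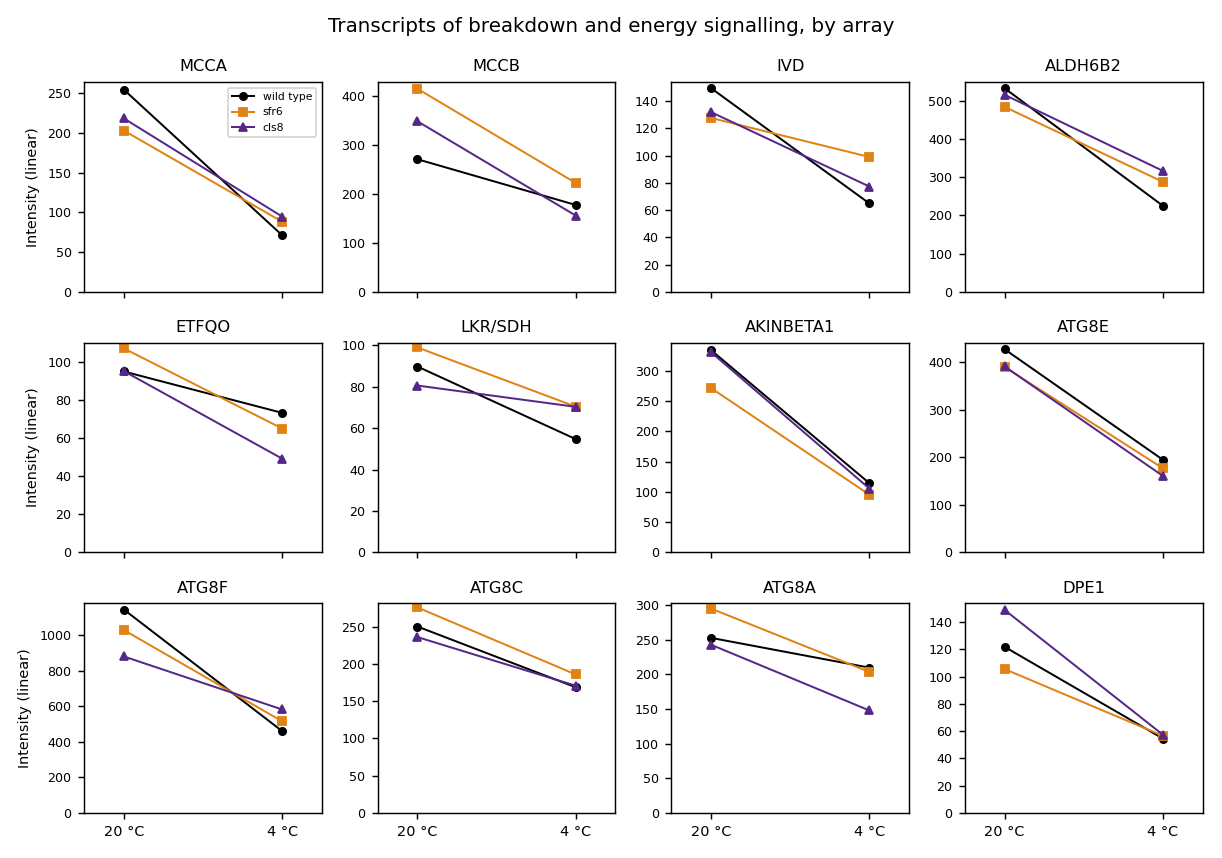
Deposited intensity (linear axis from 0) of 12 transcripts of amino acid breakdown, energy signalling, starch breakdown and autophagy on the arrays at 20 °C and at 4 °C, 1 line per genotype. Each point is 1 array without replicate, and every line runs downward. ATG8A is the gene listed as APG8A.

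**Figure D2:**
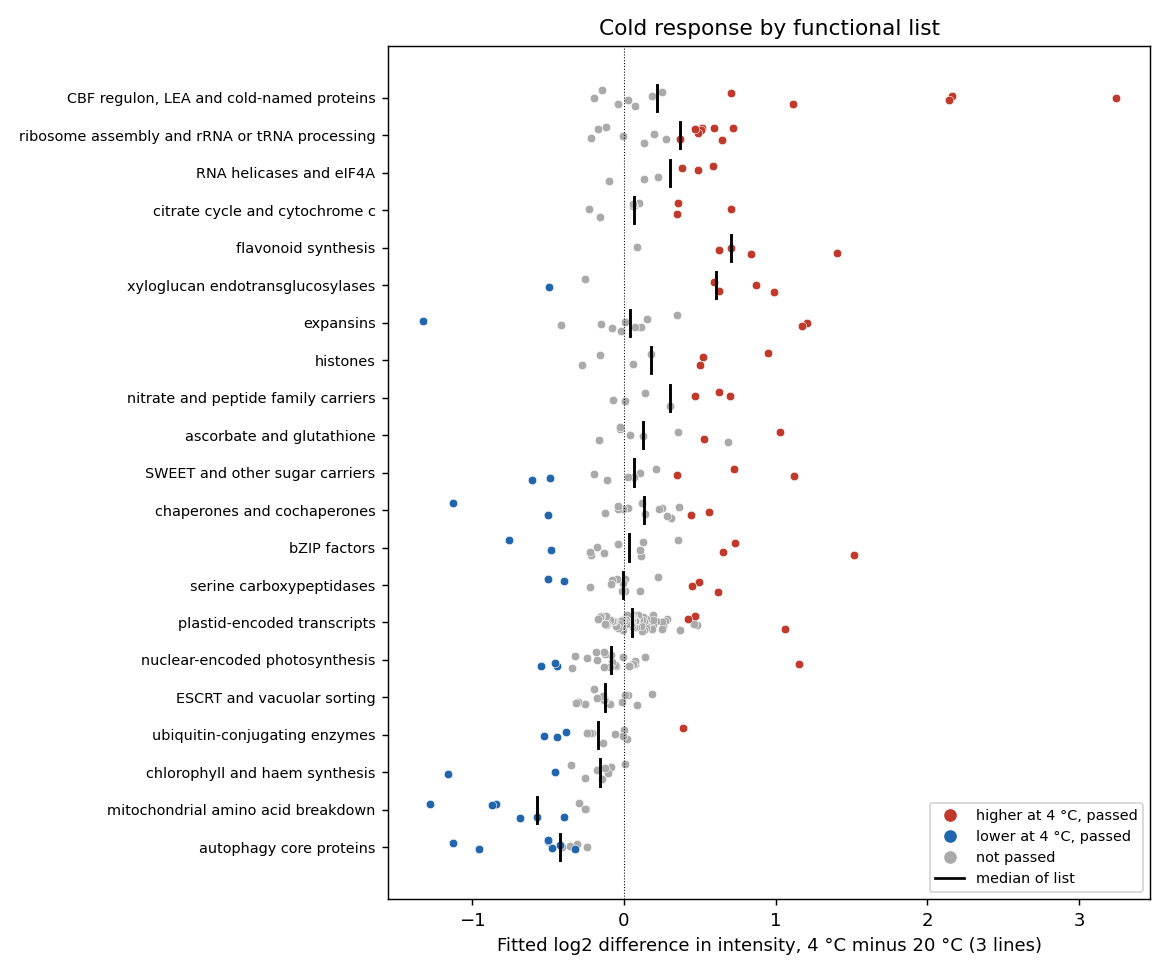
Fitted log2 difference between 4 °C and 20 °C of every measured member (points) of 21 functional lists, with the median of each list as a black bar. The amino acid breakdown and autophagy lists lie wholly below 0, while the flavonoid list lies above 0.

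Several transcripts for building ribosomes rose in cold. Of 15 measured genes of ribosome assembly and rRNA or tRNA processing, 8 rose and 0 fell, with a median log2 difference of 0.37. Each of these changes was under 2-fold, and they were larger in the wild type and sfr6 than in cls8 for most members, a difference between lines that was not tested. PES (AT5G14520), the PESCADILLO protein of large-subunit assembly, read 146.6 (wild type), 147.8 (sfr6) and 173.3 (cls8) at 20 °C, and 288.4, 277.1 and 232.3 at 4 °C. Levels in cold exceeded all warm levels, with a log2 difference of 0.72 ± 0.12 (SE, limma adjusted p = 0.0038). NOB1 (AT5G41190), a nuclease that finishes the small-subunit rRNA, read 114.7, 133 and 124 at 20 °C and 180, 222.6 and 205.3 at 4 °C in the same order of lines. It rose by a similar amount in each line, with a log2 difference of 0.65 ± 0.09 (SE, limma adjusted p = 0.00183). NLE (AT5G52820), the Notchless protein of large-subunit assembly, and YAO, a nucleolar protein needed for pre-rRNA processing, had log2 differences of 0.59 and 0.52. YAO rose by 0.77 in the wild type and 0.64 in sfr6, against 0.13 in cls8, and its cold level in cls8 was barely above the warm level. TRM82, named for a tRNA methylation factor of yeast, had a log2 difference of 0.51, PRH75, a nucleolar RNA helicase, one of 0.49, RBL (REBELOTE), a nucleolar protein, one of 0.47 and IMP4, a pre-rRNA processing factor of yeast, one of 0.37. RRP41, a subunit of the RNA exosome, had a value of 0.28 and did not pass. Of the 2 DIM1 rRNA methyltransferases, DIM1A had a value of 0.20 and DIM1B one of -0.22, and neither passed. Without the wild type, sfr6 or cls8 pair, 5, 3 and 8 of the members tested rose. With the wild type pair left out, the threshold was missed by YAO at 0.39, RBL at 0.45 and IMP4 at 0.36. AT5G52820 at 0.52, YAO at 0.45, TRM82 at 0.46, RBL at 0.49 and IMP4 at 0.29 missed the threshold in the fit that lacked the sfr6 pair. Dropping the block for line ended the calls of YAO and IMP4, and dropping the filter on the mean level those of AT5G52820, YAO, TRM82 and IMP4.

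Some other genes of RNA synthesis and handling rose. Of 8 RNA polymerase subunits 1 rose, and of 18 splicing and Sm-like genes 2, shares near the 9.58% of all probe sets. The medians of these lists were 0.26 and -0.03. Of 6 RNA helicases and eIF4A proteins 3 rose, EIF4A-2, the helicase of translation initiation, at 0.59, PRH75, counted above too, at 0.49 and NIH, a nuclear helicase, at 0.38. NRPB12, a subunit common to several RNA polymerases, rose by 0.56, while NRPA1 and NRPA2, the large subunits of the polymerase that makes pre-rRNA, had values of 0.43 and 0.29 and did not pass. Of 18 splicing and Sm-like genes AtRZ-1c, an RNA-binding protein with a zinc knuckle, and MAC3A rose, at 0.82 and 0.36. Of 7 measured histone genes 3 rose, all of them H2B genes. HTB1 read 117.4, 109.3 and 186 at 20 °C and 325, 199.8 and 306.9 at 4 °C in the same order of lines, and the cold levels stood above all warm ones with a log2 difference of 0.95 ± 0.14 (SE, limma adjusted p = 0.00184). HTB2 and HTB11 rose by 0.52 and 0.50. NIH at 0.40, HTB2 at 0.40, HTB11 at 0.38 and MAC3A at 0.30 no longer passed once the wild type pair was left out. Without the sfr6 pair, NIH at 0.39, NRPB12 at 0.52 and MAC3A at 0.33 did not pass. With the cls8 pair left out, the threshold was missed by NIH at 0.37. The calls of NIH and MAC3A were lost with no block for line, and those of NIH, NRPB12, HTB2, HTB11 and MAC3A with no filter on the mean level.

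Among genes of the cell wall, most of the measured xyloglucan endotransglucosylases rose, while the medians of the expansins, glycosyl hydrolases 9 and TBL genes lay near 0. Of 6 xyloglucan endotransglucosylases, enzymes that cut and rejoin the xyloglucan chains, 4 rose and 1 fell, with a median log2 difference of 0.61. XTH32 read 313 (wild type), 321.8 (sfr6) and 334.2 (cls8) at 20 °C, and 546.1, 706.8 and 566 at 4 °C. Its cold levels lay above all warm levels and its log2 difference was 0.87 ± 0.11 (SE, limma adjusted p = 0.000906). XTH19, XTH18 and XTH20 rose by 0.99, 0.63 and 0.59, XTH16 had a log2 difference of -0.49, and EXGT-A3, at -0.25, did not pass. With no filter on the mean level 2 of the 6 rose and 0 fell, and with the filter at the 60th percentile 2 of the 4 genes tested rose and 1 fell, with a median of 0.19. Of 12 expansins 2 rose and 1 fell, with a median of 0.04. EXLA1, an expansin-like protein, read 146.3, 161 and 176.6 at 20 °C and 322.4, 566.5 and 300.8 at 4 °C in the same order of lines. The highest cold level was that of sfr6, all 3 lay above the warm levels, and the log2 difference was 1.17 ± 0.17 (SE, limma adjusted p = 0.00178). EXLA2 rose by a similar 1.21, while EXPA8, an alpha-expansin, fell by a log2 difference of -1.32 ± 0.19 (SE, limma adjusted p = 0.00173). GH9C2 and GH9B8, endoglucanases of glycosyl hydrolase family 9, rose by 1.17 and 0.85, 4 other members did not pass, and the median was -0.05. ATPMEPCRB and PMEPCRF, pectin methylesterases, rose by 1.14 and 0.42. Of 18 TBL genes, a family for the acetylation of wall polymers, TBL26, TBL37 and TBL45 rose and TBL25 fell, with a median of -0.05, and of 7 cellulose-synthase-like genes 0 passed limma, with 1 at an unadjusted p under 0.05. TBL25 at -0.28 missed the threshold in the fit that lacked the wild type pair. PMEPCRF at 0.33, TBL26 at 0.62, TBL45 at 0.43, TBL25 at -0.40 and XTH18 at 0.37 no longer passed once the sfr6 pair was left out. Without the cls8 pair, TBL45 at 0.30, TBL25 at -0.36, XTH20 at 0.46 and XTH16 at -0.37 did not pass. EXPA8, TBL26, TBL45, TBL25 and XTH16 did not pass with no block for line, nor PMEPCRF, TBL26, TBL45, TBL25, XTH18, XTH20 and XTH16 with no filter on the mean level.

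Of 7 listed flavonoid genes on the array 5 were measured, and 4 of these rose, with a median log2 difference of 0.70. UGT78D2, which adds glucose to flavonols and anthocyanins, read 105.1 (wild type), 104.3 (sfr6) and 90.7 (cls8) at 20 °C, and 265, 289.1 and 309.4 at 4 °C. Each line rose more than 2-fold in intensity and the groups lay far apart, with a log2 difference of 1.403 ± 0.11 (SE, limma adjusted p = 6.86e-05). UGT78D1, which adds rhamnose to flavonols, rose by 0.84 and CHIL, a helper of chalcone isomerase, by 0.70. DFR, the reductase that opens the anthocyanin branch, read 45.5, 44.3 and 56.6 at 20 °C and 104.5, 59.5 and 89.4 at 4 °C in the same order of lines. It rose least in sfr6, did not overlap between temperatures, and had a log2 difference of 0.63 ± 0.14 (SE, limma adjusted p = 0.0155). UF3GT, a later anthocyanin glycosyltransferase, had a value of 0.09 and did not pass. Of 28 UDP-glycosyltransferases as a family, 4 rose, UGT78D1 and UGT78D2 beside UGT84A3 and UGT72B3, and 3 fell, UGT73B1, IAGLU and UGT85A5. The falls numbered 1 without the sfr6 pair, 0 with no filter and 1 with no block for line. Of the 5 flavonoid genes the filter at the 60th percentile left 2, and both rose. With the wild type pair left out, the threshold was missed by UGT73B1 at -0.46 and DFR at 0.44. UGT73B1 at -0.52 missed the threshold in the fit that lacked the sfr6 pair. UGT73B1 at -0.31 no longer passed once the cls8 pair was left out. Dropping the block for line ended the calls of UGT72B3, UGT73B1, IAGLU and DFR, and dropping the filter on the mean level those of UGT72B3, UGT73B1, IAGLU, UGT85A5 and DFR.

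**Figure D3:**
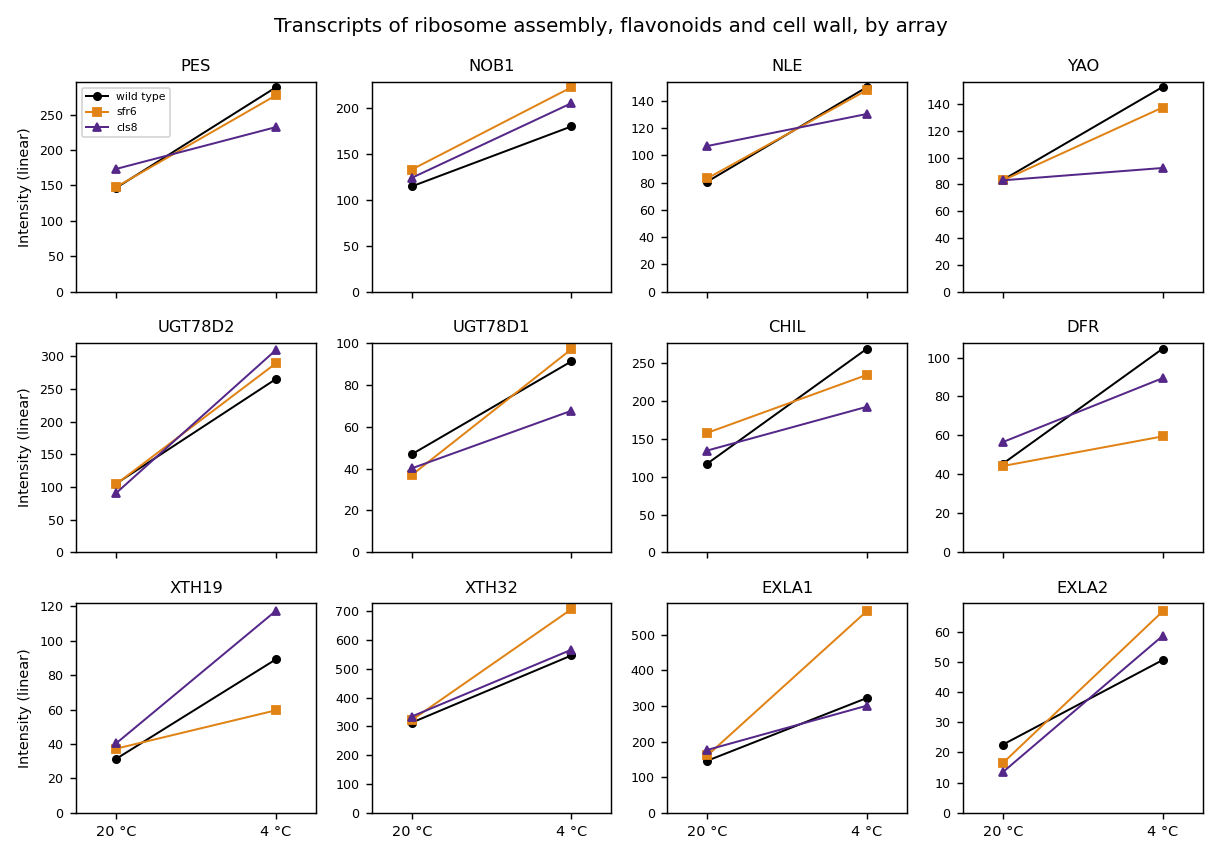
Deposited intensity (linear axis from 0) of 12 transcripts of ribosome assembly (top row), flavonoids (middle) and cell wall (bottom) on the arrays at 20 °C and 4 °C, 1 line per genotype. Each point is 1 array without replicate, and every line runs upward, YAO in cls8 the least.

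Transcripts of protective proteins of the cold response reached different levels in the 3 lines. Of 12 measured COR, LTI, LEA and similar genes 5 rose and 0 fell. COR15A, a chloroplast protein that shields membranes during freezing, read 48.4 (wild type), 33.2 (sfr6) and 97.2 (cls8) at 20 °C, and 423.7, 101.3 and 573 at 4 °C. Each line rose, sfr6 reached the lowest cold level, and the groups still did not overlap. COR15B, the neighbouring copy, read 110, 71.1 and 171.5 at 20 °C and 619.1, 313.7 and 793.6 at 4 °C in the same order of lines. Its lines ranked as those of COR15A at both temperatures, with a log2 difference of 2.14 ± 0.11 (SE, limma adjusted p = 6.19e-06). COR15A had a log2 difference of 2.16 ± 0.24 (SE, limma adjusted p = 0.000449). The dehydrin LTI30 read 365.9, 107.6 and 366.7 at 20 °C and 847, 176.7 and 1074.5 at 4 °C in the same order of lines. It rose in each line, yet sfr6 in cold lay below the wild type at 20 °C, so the groups overlapped. Its log2 difference was 1.11 ± 0.15 (SE, limma adjusted p = 0.00139). COR47, a further dehydrin, had a log2 difference of 0.70 ± 0.14 (SE, limma adjusted p = 0.0102) and overlapped in the same way. COR27, which acts in both cold and clock signalling, read 13 (wild type), 13.2 (sfr6) and 10.9 (cls8) at 20 °C, and 242.5, 170 and 316.6 at 4 °C, and had no overlap between temperatures. Among probe sets with exactly 1 gene, its log2 difference of 3.24 was the largest of a gene with a symbol, while probe sets not paired with exactly 1 gene reached 5.48. DI21 had a value of 0.25 and did not pass. The calls of LTI30 and COR47 were lost with no block for line, and those of COR47 with no filter on the mean level.

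Among transcription factors, bZIP members moved in both directions. HYH, the partner of the light regulator HY5, read 42.7 (wild type), 47.9 (sfr6) and 37.9 (cls8) at 20 °C, and 125.2, 201.6 and 128.7 at 4 °C. It was highest in sfr6 in cold and did not overlap between temperatures, with a log2 difference of 1.52 ± 0.12 (SE, limma adjusted p = 0.000102). Of 14 bZIP factors, HYH, bZIP44 and AT2G31370, listed as PosF21, rose, at 1.52, 0.73 and 0.65, while BZIP61 and AT1G06070 fell, at -0.75 and -0.48. TINY2, an AP2/ERF factor of stress responses, rose by 1.12 and SMZ, a repressor of flowering, by 0.82. AT5G61590, listed as DEWAX, a repressor of wax synthesis, read 810.2, 562.3 and 599 at 20 °C and 210.9, 319.3 and 156.3 at 4 °C in the same order of lines. It fell in each line without overlap, with a log2 difference of -1.50 ± 0.19 (SE, limma adjusted p = 0.00105). MYC4, a factor of the jasmonate pathway, rose by 0.74. Of 6 regulators of iron homeostasis, bHLH121 and PYE fell by log2 differences of -0.88 and -0.64. Of 5 WRKY factors WRKY6 rose by 0.86 and ZAP1 fell, at -0.46. ARR15, a cytokinin-induced response regulator, rose by 1.398. Of 6 listed regulators of this kind on the array, only ARR15 was kept by the filter on the mean level. The filter at the 60th percentile left out ARR15 too. Of 12 measured clock and light genes 4 rose, 0 fell and 8 did not pass. Fitted values lay below 0 for 7 of them, and the median log2 difference was -0.05. Among the risers GI rose by 0.36 and AFR, an F-box protein of phytochrome signalling, by 0.53, besides COR27 described above. The GI levels overlapped. Without the wild type pair, ZAP1 at -0.32 and AT1G06070 at -0.50 did not pass. With the sfr6 pair left out, the threshold was missed by ZAP1 at -0.54, AT1G06070 at -0.52 and GI at 0.28. AT1G06070 at -0.41 and GI at 0.38 missed the threshold in the fit that lacked the cls8 pair. GI did not pass with no block for line, nor ZAP1, AT1G06070 and GI with no filter on the mean level.

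Calls among hormone and growth genes were spread over short lists. Of 6 auxin genes GH3.17 and GH3.3, which join auxin to amino acids, rose by 0.51 and 0.46, and IAGLU, which joins it to glucose, had a log2 difference of -0.69. Of 4 brassinosteroid-linked genes BRH1 and EXO fell by log2 differences of -0.83 and -0.56, and of 5 gibberellin genes the receptor GID1A fell, at -0.44. Of 6 jasmonate genes MYC4, described above, and OPCL1 of jasmonate synthesis rose, OPCL1 by 0.70. Of 7 RALF growth peptides RALFL22 and RALFL24 rose by 0.69 and 0.49. Of 9 receptor kinases of growth GSO1 fell, at -0.39. Of 4 ethylene genes 0 passed limma and 2 had an unadjusted p under 0.05, with EIN3 at -0.33 and RTE1 at -0.34. GH3.17 at 0.32, GH3.3 at 0.41, OPCL1 at 0.52 and GSO1 at -0.45 no longer passed once the wild type pair was left out. Without the sfr6 pair, RALFL24 at 0.41, GH3.3 at 0.44, GID1A at -0.35 and GSO1 at -0.28 did not pass. With the cls8 pair left out, the threshold was missed by GSO1 at -0.43. Dropping the block for line ended the calls of GH3.17, GH3.3, GID1A and GSO1, and dropping the filter on the mean level those of GH3.17, GH3.3, EXO, GID1A, OPCL1 and GSO1.

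Some sugar and nitrogen carriers and respiratory genes changed as well. SAG29, a sucrose carrier of the SWEET family, read 40.7 (wild type), 26 (sfr6) and 67.9 (cls8) at 20 °C, and 107.6, 89.8 and 132.2 at 4 °C. The cold levels exceeded all warm levels, and the log2 difference was 1.12 ± 0.13 (SE, limma adjusted p = 0.000597). SWEET2 and SWEET17, sugar carriers of the vacuole membrane, rose by 0.73 and 0.35, whereas SWEET16, a further carrier of that membrane, had a log2 difference of -0.61 and SFP1, a sugar carrier, one of -0.49. Of 7 carriers of the nitrate and peptide family GTR1, which moves glucosinolates, and AT1G68570 and AT3G21670 rose, by 0.63, 0.70 and 0.47. Of 9 genes of the citrate cycle and cytochrome c, CYTC-2, a cytochrome c, rose by 0.70, SDH1-1 of succinate dehydrogenase by 0.36 and IDH-VI of isocitrate dehydrogenase by 0.35, and CYTC-1 had a value of 0.06 and did not pass. In antioxidant metabolism GR1, glutathione reductase, read 228.7, 331.3 and 230.1 at 20 °C and 502.1, 625.4 and 514.1 at 4 °C in the same order of lines. Each cold level lay above all warm levels, with a log2 difference of 1.03 ± 0.10 (SE, limma adjusted p = 0.000219). SAPX, an ascorbate peroxidase of plastids, rose by 0.53, and VTC4 of ascorbate synthesis had a value of 0.69, close to the threshold (limma adjusted p = 0.0513), with 1.14 for the wild type, -0.10 for sfr6 and 1.03 for cls8. SWEET17 at 0.40, SAPX at 0.52 and IDH-VI at 0.28 missed the threshold in the fit that lacked the wild type pair. SWEET17 at 0.25, SAPX at 0.32, SDH1-1 at 0.34, IDH-VI at 0.40 and AT3G21670 at 0.39 no longer passed once the sfr6 pair was left out. Without the cls8 pair, SDH1-1 at 0.35 and IDH-VI at 0.37 did not pass. The calls of SWEET17, SWEET16, SAPX, SDH1-1 and IDH-VI were lost with no block for line, and those of SWEET17, SAPX, IDH-VI and AT3G21670 with no filter on the mean level.

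Of 24 nuclear-encoded photosynthesis genes 1 rose and 3 fell, together not far from the 18.8% of all probe sets that passed. The list's median had a different sign in cls8. Over the list the median log2 difference was -0.41 for the wild type, -0.13 for sfr6 and 0.32 for cls8, and this difference between lines was not tested. For cls8 it cannot be told apart from the different repeats that its arrays are titled as. Without the wild type pair the fitted median was 0.09, and without the cls8 pair -0.31. CURT1D (AT4G38100), which helps to bend thylakoid membranes, read 66.7, 86.8 and 60.9 at 20 °C and 203.5, 229.1 and 113.7 at 4 °C in the same order of lines. It rose in each line without overlap, with a log2 difference of 1.16 ± 0.13 (SE, limma adjusted p = 0.000643). NdhS, LPA2 and PGRL1B, of the NDH complex, photosystem assembly and cyclic electron flow, fell by log2 differences of -0.54, -0.46 and -0.44. PORB, a light-dependent enzyme of chlorophyll synthesis, read 1705.7 (wild type), 1030.5 (sfr6) and 1736.4 (cls8) at 20 °C, and 909.4, 346 and 836.7 at 4 °C. It fell in each line without overlap, with a log2 difference of -1.16 ± 0.14 (SE, limma adjusted p = 0.000864), and HEME1 of the same pathway had one of -0.45. Of 69 plastid-encoded transcripts 3 rose (rps16, rbcL and atpH) and 0 fell. Without the sfr6 pair, with no filter and with no block for line, 1 rose in each fit. With the wild type pair left out, the threshold was missed by LPA2 at -0.34 and atpH at 0.32. HEME1 at -0.38, PGRL1B at -0.42, LPA2 at -0.39, NdhS at -0.45, rbcL at 0.56 and atpH at 0.41 missed the threshold in the fit that lacked the sfr6 pair. rbcL at 0.28 no longer passed once the cls8 pair was left out. PORB, rbcL and atpH did not pass with no block for line, nor HEME1, LPA2, rbcL and atpH with no filter on the mean level.

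Of 16 chaperones and cochaperones 2 rose and 2 fell, shares not far from those of all probe sets. Hsp70-2 and BOB1, a small chaperone, rose by 0.56 and 0.44, while Fes1B and Fes1C, exchange factors for Hsp70, fell by log2 differences of -1.13 and -0.50. Fes1B read 152.3, 117.4 and 189.1 at 20 °C and 70.5, 54.1 and 60 at 4 °C in the same order of lines, so no cold level reached a warm one. The other 12 measured members did not pass, and without the sfr6 pair only 1 of the 16, a fall, passed. Without the sfr6 pair, Hsp70-2 at 0.45, BOB1 at 0.40 and Fes1C at -0.46 did not pass. Fes1C did not pass with no filter on the mean level.

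Beyond the largest changes, the ranks 13 to 40 among probe sets with 1 gene were mostly genes without a symbol. The risers in these ranks ran from 2.24 for AT2G36220 to 1.42 for AT2G16365, and the fallers from -1.74 for AT2G24550 to -1.22 for AT4G30690. Symbols in these ranks were COR15A, COR15B and HYH among the risers and AKINBETA1, EXPA8, CCL and MCCA among the fallers. AT5G54130 had 2 probe sets there that rose, and AT2G37480 had 2 that fell. Agreement between lines varied: AT4G34950 rose by 1.16, 3.12 and 1.75 in the wild type, sfr6 and cls8, and AT1G68500 by 2.82, 0.69 and 3.10. Dropping the block for line ended the calls of AT1G68500 and EXPA8. Those of AT1G68500, AT1G64890 and AT4G39675 were lost with no filter on the mean level.

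**Figure D4:**
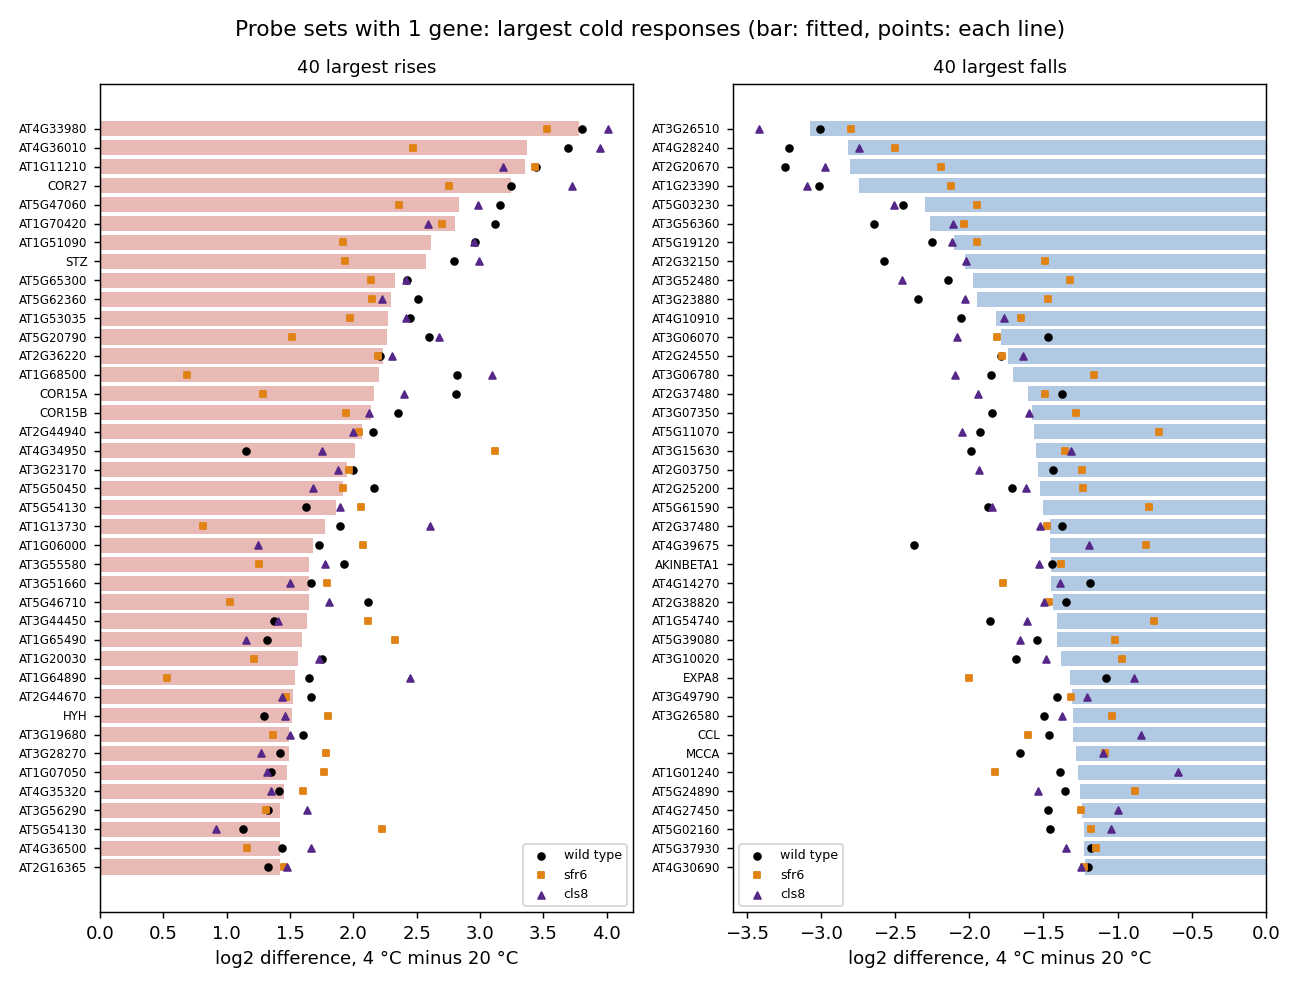
Log2 differences between 4 °C and 20 °C for the 40 largest rises and 40 largest falls among probe sets with exactly 1 gene; bars are fitted values and points the 3 lines. Only probe sets that passed and moved the same way in the 3 lines were ranked, so every point lies on the side of its bar by selection. The sfr6 point stands apart from the other lines for AT1G68500 and AT4G34950. A gene with 2 probe sets appears 2 times.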

How the data were processed

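The authors deposited 1 intensity per probe set and array on a linear scale, per the labels' array type, by software not given in the sources used here. The 3 lines gave 6 arrays, whose number limits the precision. From 22810 probe sets 64 controls were dropped. Values became log2(intensity + 14.1). This pseudocount is percentile 25 over all arrays. The 13648 probe sets with a mean at or above the 40th percentile were kept. Differences are on that scale, which understates changes of dim genes. limma 3.58.1 in R 4.3.3 fitted line and temperature with an intensity trend (2 residual degrees of freedom), two-sided, with Benjamini-Hochberg adjustment at 0.05. Line was the block because arrays pair by genotype. With line in the model, the residual variance of a probe set reflects how far the difference between temperatures varied over the 3 lines. That variation holds noise and differences between genotypes in the cold response alike. limma drew each variance towards a trend over all kept probe sets, with 6.8 prior degrees of freedom against 2 residual ones. The p-values thus rest more on that trend than on the spread over the 3 lines of the gene itself. The arrays may not be separate experiments. The model was run on simulated data with independent noise at its own fitted variances and no differences between lines. That check does not cover differences between lines in the cold response. Platform annotation gave 13513 probe sets 1 gene, of which 13436 matched RefSeq (TAIR10.1), used for names only. Lists and named genes were chosen with earlier results of these data known. Named were up to 4 rises and 4 falls per list, what a list is known for, and ranks 13 to 40. Ranks were given only to probe sets with 1 gene that passed and moved the same way in the 3 lines. Some genes that did not pass were chosen after their values were seen. Promoter motifs were not analysed here.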

Additional observations from a re-analysis of the deposited data

Results flagged for a closer look

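For 10 named genes that did not pass, at least 1 line moved against the others between 20 °C and 4 °C, with 1 pair of arrays per line, so that these differences were not tested. The gap between the highest and lowest log2 difference among the 3 lines was 1.24 for VTC4, 1.13 for RCA, 0.73 for DIM1B, 0.70 for DIM1A and 0.67 for NRPA2. It was 0.63 for PYK10, 0.45 for CYTC-1, 0.40 for UF3GT, 0.29 for FMA and 0.28 for EXPA7. The line that stood alone in direction was sfr6 for VTC4 and cls8 for DIM1A and NRPA2.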

How the results depend on the processing

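The alternatives were tried on 218 results, the ranked probe sets and every list member that passed, not all of which are named above. Of these 218, 130 kept their call in every alternative fit that tested them, and 0 reversed. Only 179 were tested with the filter at the 60th percentile, and 216 with a pseudocount of 1. Without the sfr6 and cls8 pairs 215 and 214 were tested. A result that a fit did not test was not counted as lost there. The 2570 calls became 1445 with no filter on the mean level (779 higher, 666 lower) and 1589 with no block for line (805 higher, 784 lower). The 334 changes of at least 2-fold became 212 with the median as pseudocount and 470 with a pseudocount of 1, within 1.5 times of the main count for the latter. Leaving out 1 line's pair gave 1533 to 2384 calls, 803 to 1323 higher and 730 to 1061 lower, and 318 to 364 of at least 2-fold, the lowest total being without sfr6. Quantile normalization gave 2812 calls. A call was lost for 68 of the 218 results with no filter, 52 with no block, and 60, 37 and 23 without the sfr6, wild type and cls8 pairs. Leaving out a pair removes arrays, and the filter changes which probe sets are tested. The fit with no block keeps the arrays and probe sets and moves the differences between lines into the residual. No paired analysis by replicate number was possible because each line and temperature has 1 array; line is already the block. With no filter 4 of 11 autophagy, 3 of 9 amino acid breakdown and 4 of 15 ribosome assembly genes passed, and with no block 4, 5 and 6. Promoter motif shares were not run. The number of arrays, 1 per line and temperature, limits every value, and dim probe sets the most.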
